A study of Homo sapiens with 18 samples.

Results

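The endophilin A genes are SH3GL1, SH3GL2 and SH3GL3, 3 of the 58825 genes in the count tables. SH3GL2 was chosen by its large rise at 24 h in these libraries, and SH3GL1 and SH3GL3 by membership of the same family. The 24 h levels of SH3GL2 are therefore given as a description without a test, and its 4 h libraries, which the choice did not use, carry its tests. OVCAR-3 cells, an established line of high-grade serous ovarian carcinoma, received DMSO, i-BET151 or i-BET858, the drugs at 1 µM each, for 4 or 24 h. There were 6 groups of 3 biological replicates. All groups, the DMSO groups included, were kept in stripped medium during treatment. Both drugs are inhibitors of the BET bromodomain proteins, which bind acetylated histones and support transcription. Because RNA was taken from whole cultures of 1 line, a rise in every cell and a larger rise in some of the cells cannot be told apart.

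Library totals lay between 27323969 and 46299994 counts, and a count of 0 allowed a level of up to 0.0648 to 0.110 CPM (counts scaled to the library size), counting error only. Replicate 3 of every group had fewer genes with a count (17817 to 20642) than replicates 1 and 2 (23674 to 24947). Values without replicate 3 in every group are given where they change a call. The 9 epithelial and serous markers, among them PAX8, WT1, MUC16 and KRT8, were present in every library. The lowest count of any of the 9 in a library was 1702, for MUC16. The p-values below set a difference between groups against the spread between replicates, estimated over all groups of a fit.

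Endophilins A bend membranes. Their crescent-shaped BAR domain lies on the neck of a budding vesicle, and their SH3 domain recruits dynamin, which cuts the neck, and synaptojanin, which removes phosphoinositides from the vesicle so that the coat comes off. SH3GL2 encodes endophilin A1, best known from the presynaptic terminals of neurons, where vesicles are recycled. SH3GL1 encodes endophilin A2, which is found in most tissues, and SH3GL3 encodes endophilin A3, known mainly from brain and testis. Outside synapses the same proteins carry a fast, clathrin-independent uptake of activated receptors.

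In GRCh38 (GENCODE 44), SH3GL2 spanned chr9:17579066-17797124 on the plus strand, 218.059 kb with 10 merged exons and 2693 exonic bases. SH3GL1 lay on the minus strand at chr19:4360370-4400547 with 13 merged exons and 3685 exonic bases. SH3GL3 lay on the plus strand at chr15:83447228-83618743 with 14 merged exons and 3363 exonic bases. In the longest annotated coding sequences, aligned bases were 72.8% identical between SH3GL1 and SH3GL2, 67.0% between SH3GL1 and SH3GL3 and 68.6% between SH3GL2 and SH3GL3. The longest run of bases shared without a mismatch was 23, 14 and 12 in the same order. Among the processed copies of SH3GL1, the pseudogene SH3GL1P1 had 0 to 7 counts, SH3GL1P2 0 to 8, and SH3GL1P3 0 in all libraries. Exons of SH3GL1 shared 194 bases with ENSG00000267980, a long non-coding RNA on the opposite strand with 0 to 20 counts. The exons of SH3GL2 and SH3GL3 overlapped no exon of another annotated gene.

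The promoters of the 3 genes are shown as a description, and a link of their letters to the drug response was not tested. RefSeq promoter windows of 300 bases (GRCh38.p14), from 250 before to 50 after the start site, matched all 3 genes. The windows are chr9:17578816-17579115 on the plus strand for SH3GL2, chr19:4400498-4400797 on the minus strand for SH3GL1 and chr15:83447091-83447390 on the plus strand for the upstream start of SH3GL3. Capitals mark matches, on either strand, to 6 motifs: the cyclic AMP response element TGACGTCA, the AP-1 site TGANTCA, the E-box CACGTG, the GC box GGGCGG, the CCAAT box CCAAT and the TATA box TATAAA.
SH3GL2: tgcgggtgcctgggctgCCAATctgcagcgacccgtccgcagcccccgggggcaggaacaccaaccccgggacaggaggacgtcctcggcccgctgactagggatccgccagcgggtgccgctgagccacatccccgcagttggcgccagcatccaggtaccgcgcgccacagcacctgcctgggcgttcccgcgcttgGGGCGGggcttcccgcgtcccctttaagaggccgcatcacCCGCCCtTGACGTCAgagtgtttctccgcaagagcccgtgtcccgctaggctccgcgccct
SH3GL1: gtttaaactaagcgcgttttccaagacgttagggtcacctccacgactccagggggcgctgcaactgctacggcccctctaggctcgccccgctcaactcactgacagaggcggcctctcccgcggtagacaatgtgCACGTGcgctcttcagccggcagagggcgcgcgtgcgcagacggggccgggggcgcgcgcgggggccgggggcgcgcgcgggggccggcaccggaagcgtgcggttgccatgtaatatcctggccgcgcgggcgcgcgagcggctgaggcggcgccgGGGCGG
SH3GL3: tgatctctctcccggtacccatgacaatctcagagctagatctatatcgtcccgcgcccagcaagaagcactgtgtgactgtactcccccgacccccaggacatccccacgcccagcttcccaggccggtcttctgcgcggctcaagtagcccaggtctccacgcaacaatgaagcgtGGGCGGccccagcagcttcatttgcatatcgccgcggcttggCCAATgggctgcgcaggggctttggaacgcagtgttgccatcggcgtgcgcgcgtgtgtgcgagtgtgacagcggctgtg

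The SH3GL2 window held the 8 letters of the cyclic AMP response element, beginning 4 bases before the start site. Of 35116 promoter windows of the same length, 1.85% held these letters. It also held 2 GC boxes, beginning 51 and 11 bases before the start, and a CCAAT box beginning 233 bases before it. The SH3GL1 window held an E-box, 113 bases before the start, and a GC box at its end. The upstream SH3GL3 window held a GC box and a CCAAT box, 72 and 30 bases before the start. The E-box letters were in 7.26% of all windows, the GC box in 45.0%, the CCAAT box in 34.6%, the AP-1 site in 7.71% and the TATA box in 11.5%. The last 2 motifs had no match in the 3 windows printed. GC content was 71.0% in the SH3GL2 window, 72.3% in that of SH3GL1 and 62.3% in that of SH3GL3, against a median of 58.7% over all windows, and the 3 windows held 31, 44 and 24 CpG dinucleotides, against a median of 14. A second RefSeq window of SH3GL3, at chr15:83490364-83490663, had 49.0% GC, 2 CpG dinucleotides and no match to the 6 motifs. A match is a description of letters and shows no binding.

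SH3GL2 was close to silent with DMSO and rose within 4 h with both drugs. In the DMSO libraries at 4 h it had 8, 9 and 2 counts (replicates 1, 2 and 3). Under i-BET858 at 4 h it had 85, 221 and 99 counts, and under i-BET151 81, 149 and 95. Each treated library stood above each DMSO library, and replicate 2 was the highest of both treated groups. In CPM of the TMM-adjusted library, the level was 0.180 ± 0.102 (SD, n = 3) with DMSO, 4.39 ± 2.48 under i-BET858 and 3.63 ± 1.55 under i-BET151. The rise under i-BET858 was 23.6-fold (log2 4.56, SE 0.58, edgeR quasi-likelihood test, Benjamini-Hochberg adjusted p = 0.000149), higher in 9 of 9 pairings of treated with DMSO libraries. Under i-BET151 it was 19.4-fold (log2 4.28, SE 0.58, adjusted p = 0.000577 in edgeR), again in 9 of 9 pairs. At this threshold of 0.05, 30.8% of the 17192 genes tested under i-BET858 at 4 h and 16.2% under i-BET151 were called. The summed counts gave a ratio to DMSO of 23.6 (95% counting interval 14.9 to 39.7) under i-BET858 and of 19.2 (12.1 to 32.3) under i-BET151. Both ratios rest on 19 counts in the DMSO group, which both comparisons share. SH3GL2 passed the filter on low counts only through its treated libraries, so these p-values belong to a gene that was tested because it was high there. Both calls held in the fit with no filter (log2 4.54 and 4.28).

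At 24 h the gap between treated and DMSO libraries was wider. The DMSO libraries had 3, 5 and 0 counts of SH3GL2, a group mean of 0.0864 ± 0.0842 CPM (n = 3). The library with 0 counts, replicate 3, allowed a level of up to 0.0976 CPM. Under i-BET858 at 24 h there were 282, 211 and 150 counts (5.46 ± 0.941 CPM), and under i-BET151 233, 169 and 216 (5.70 ± 0.574 CPM). The treated libraries of each drug lay closer together at 24 h than at 4 h. The fitted log2 change was 5.91 (SE 0.51) under i-BET858 and 5.99 (SE 0.51) under i-BET151. The ratio of summed counts was 65.1 (32.9 to 152) and 67.2 (33.9 to 156), over 8 counts in the DMSO group. These intervals cover counting error only and are no test, since the 24 h values led to the choice of the gene. Ordered by rise, SH3GL2 was 62nd of 17192 genes under i-BET858 and 37th under i-BET151 at 4 h. Between 4 and 24 h its fitted log2 effect was larger by 1.38 (SE 0.87) under i-BET858 and by 1.72 (SE 0.88) under i-BET151. The DMSO counts, 19 in all at 4 h and 8 at 24 h, enter that change, as the log2 change from DMSO at 4 h to DMSO at 24 h was -1.06 (SE 0.76). In the order of group means, both DMSO groups overlapped each other, and so did each treated group and the next.

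**Figure D1:**
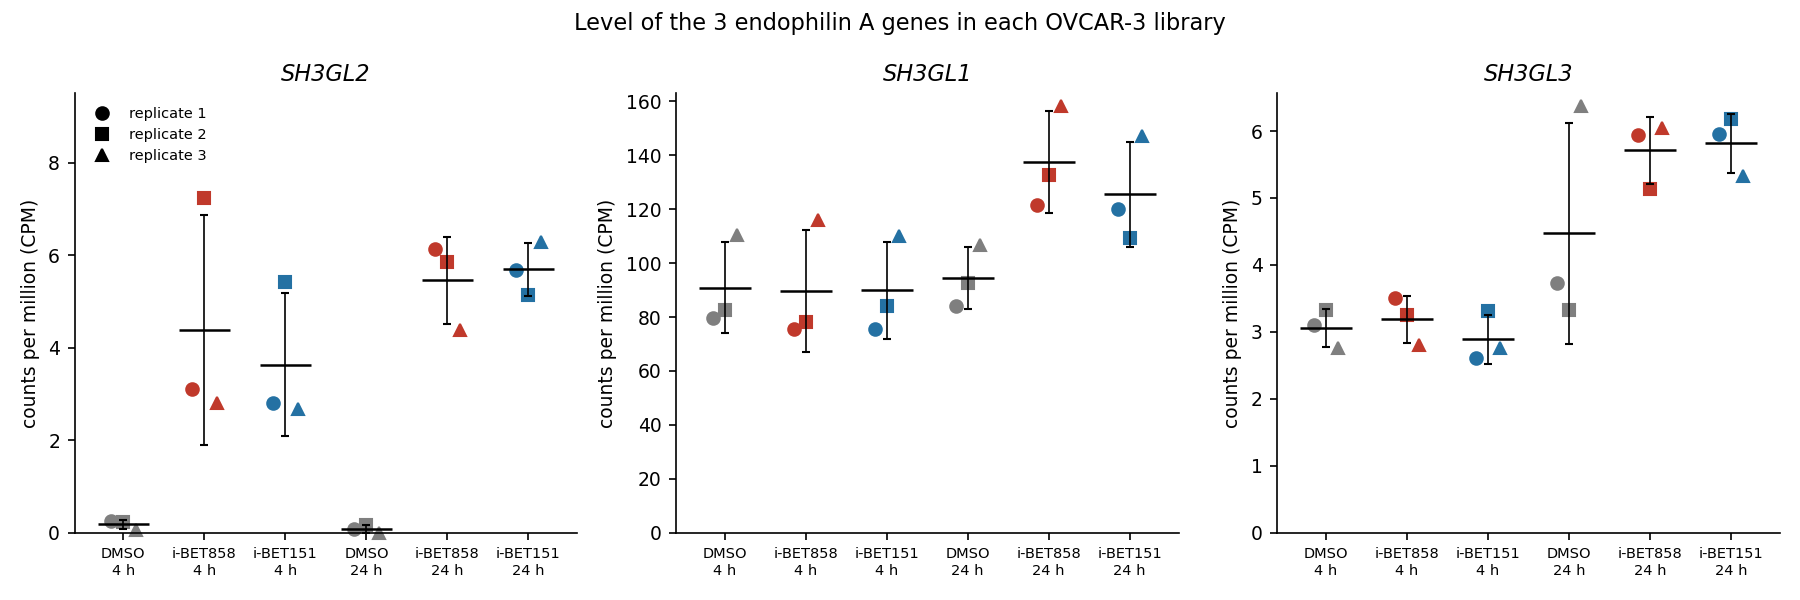
CPM (y axis, linear, a separate scale for each gene) of SH3GL2, SH3GL1 and SH3GL3 in each of the 18 libraries, by group (x axis), with the replicate as symbol, the group mean as a line and ± 1 SD as a bar. SH3GL2 lay between 0 and 0.246 CPM in the 6 DMSO libraries and between 2.67 and 7.25 CPM in the 12 treated ones, while SH3GL1 lay between 75.5 and 158 CPM throughout.

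The drugs were compared at a matched dose of 1 µM, in 3 genes at 2 times. For SH3GL2 at 4 h the level under i-BET858 was 1.22-fold that under i-BET151, with a 95% interval of the log2 difference from -0.73 to 1.29 (edgeR adjusted p = 0.902). It was higher in 6 of 9 pairs, and without replicate 2 of the i-BET858 group at 4 h the difference was -0.29. Within replicates 1, 2 and 3 the log2 ratio of i-BET858 to i-BET151 was 0.14, 0.42 and 0.08. The interval thus includes a difference of more than 2-fold in favour of i-BET858. In 24 h libraries the log2 difference was -0.08 (SE 0.34) as a description. The ratio of summed counts between the drugs was 1.23 (1.06 to 1.43) at 4 h and 0.970 (0.867 to 1.08) at 24 h, with intervals for counting error only. Neither SH3GL1 nor SH3GL3 differed between the drugs past the threshold. For SH3GL1 the log2 difference was 0.01 at 4 h (95% interval -0.44 to 0.45, adjusted p = 0.997 in edgeR) and 0.11 at 24 h (-0.22 to 0.45, adjusted p = 0.880). For SH3GL3 it was 0.15 at 4 h (-0.40 to 0.69, adjusted p = 0.905 in edgeR) and -0.04 at 24 h (-0.60 to 0.51, adjusted p = 0.987). Over all genes tested, 0.971% at 4 h and 0.21% at 24 h were called between the drugs.

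SH3GL1, the widely expressed member, was the most abundant of the 3 and did not pass the threshold at 4 h. Its level at 4 h was 79.7, 82.6 and 110 CPM in the DMSO libraries, 75.5, 78.0 and 116 under i-BET858 and 75.5, 84.1 and 110 under i-BET151. In all 6 groups replicate 3 was the highest library. The log2 change at 4 h was -0.01 under i-BET858 (95% interval -0.46 to 0.44, edgeR adjusted p = 0.974) and -0.02 under i-BET151 (-0.47 to 0.43, adjusted p = 0.970).

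At 24 h SH3GL1 was at 84.2, 92.8 and 107 CPM with DMSO, 122, 133 and 158 under i-BET858 and 120, 109 and 147 under i-BET151. No treated library overlapped with a DMSO library. The rise under i-BET858 was 1.41-fold (log2 0.50, SE 0.15, edgeR adjusted p = 0.0211), higher in 9 of 9 pairs, where 41.7% of the 17157 genes tested were called. Within replicates 1, 2 and 3 the log2 ratio was 0.53, 0.52 and 0.57. The call was lost without replicate 1 or 2 of the DMSO group (adjusted p = 0.0794 and 0.0648 in edgeR) or without replicate 3 of the i-BET858 group (adjusted p = 0.0653). Under i-BET151 SH3GL1 was 1.31-fold higher in 9 of 9 pairs (log2 0.38, SE 0.15), which did not pass the threshold (edgeR adjusted p = 0.0727, with 33.8% of genes called). With the replicate number as a block the same difference did pass (log2 0.38, adjusted p = 0.00226 in edgeR). It also passed without replicate 3 in every group (log2 0.34, adjusted p = 0.00433 in edgeR). The same held without replicate 3 of the DMSO group alone or of the i-BET858 group alone (adjusted p = 0.0337 and 0.0495 in edgeR).

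The effect on SH3GL1 at 24 h exceeded that at 4 h by 0.56 (log2, SE 0.26) under i-BET858 and by 0.42 (SE 0.26) under i-BET151. Neither change of effect passed the threshold (edgeR adjusted p = 0.131 and 0.326), at which 27.2% and 13.8% of 18154 genes were called. Both passed with the replicate block (log2 0.56, adjusted p = 0.00109 and log2 0.42, adjusted p = 0.0161 in edgeR). Without replicate 3 in every group the change of the i-BET858 effect passed as well (log2 0.59, adjusted p = 0.00369 in edgeR). Between the DMSO groups at 24 and 4 h, SH3GL1 had a log2 difference of 0.06 (SE 0.19, edgeR adjusted p = 0.986), and 0.0386% of genes were called there.

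SH3GL3 was low in every library and its result at 24 h turned on 1 library. At 4 h it had 101, 129 and 88 counts with DMSO, 96, 99 and 99 under i-BET858 and 75, 91 and 98 under i-BET151. The 3 groups overlapped, with log2 changes of 0.06 (95% interval -0.48 to 0.60) and -0.09 (-0.63 to 0.46) and edgeR adjusted p = 0.887 and 0.861. At 24 h the DMSO libraries were at 3.72, 3.33 and 6.37 CPM, with replicate 3 above all other libraries of the gene. Under i-BET858 they were at 5.94, 5.14 and 6.05 CPM, and under i-BET151 at 5.95, 6.17 and 5.32. The log2 change was 0.31 (SE 0.25, edgeR adjusted p = 0.369) under i-BET858 and 0.35 (SE 0.25, adjusted p = 0.328) under i-BET151, higher in 6 of 9 pairs each. Without replicate 3 of the DMSO group at 24 h it was 0.68 (adjusted p = 0.0194 in edgeR) and 0.72 (adjusted p = 0.0196). Without replicate 3 in every group it was 0.62 (adjusted p = 0.00519 in edgeR) and 0.74 (adjusted p = 0.00212), and the change of the i-BET151 effect from 4 to 24 h was 0.88 (adjusted p = 0.0325). With all libraries those changes of effect were 0.30 (SE 0.34, edgeR adjusted p = 0.574) under i-BET858 and 0.46 (SE 0.34, adjusted p = 0.416) under i-BET151. The log2 difference of SH3GL3 between DMSO at 24 and 4 h was 0.55 (SE 0.24), in 9 of 9 pairs, with an edgeR adjusted p = 0.485, and was 0.14 without replicate 3 in every group.

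**Figure D2:**
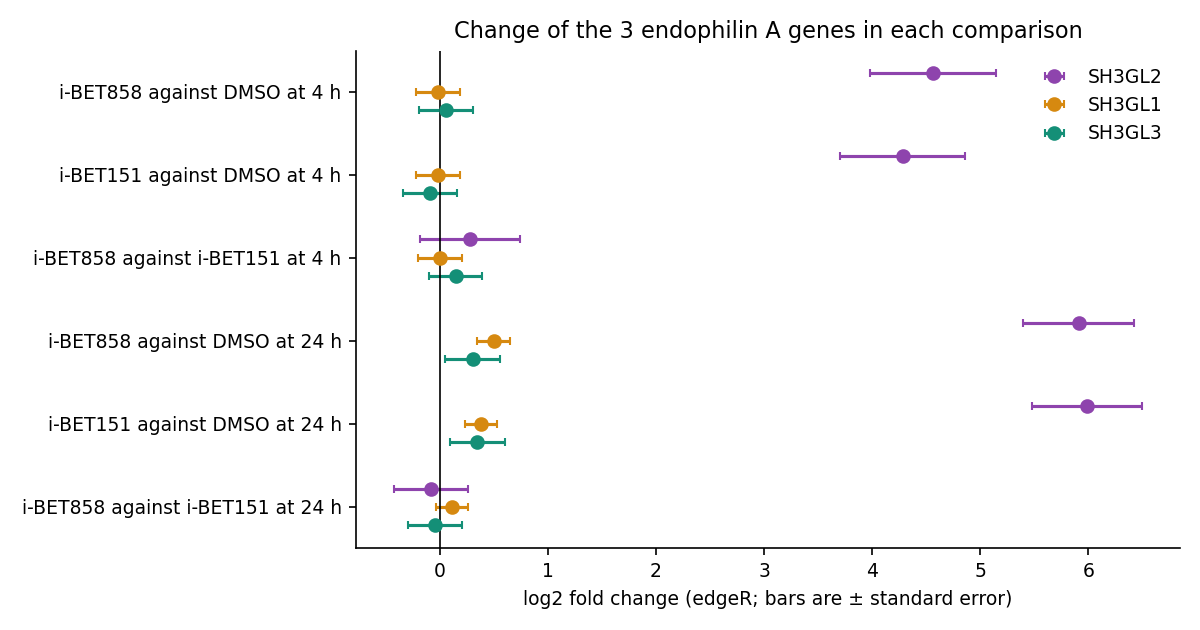
Fitted log2 fold change (x axis, ± standard error) of SH3GL2, SH3GL1 and SH3GL3 in the comparisons with DMSO and between the drugs (y axis). SH3GL2 stood at 4.28 to 5.99 against DMSO, SH3GL1 and SH3GL3 between -0.09 and 0.50, and all differences between the drugs between -0.08 and 0.28.

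Per kb of merged exons, SH3GL1 made up nearly all of the endophilin A RNA in every group. With DMSO at 4 h the levels were 24.7 CPM per kb for SH3GL1, 0.910 for SH3GL3 and 0.0669 for SH3GL2. SH3GL2 was thus 0.282 ± 0.179% of the 3 genes with DMSO at 4 h (SD, n = 3), 6.35 ± 4.01% under i-BET858 and 5.20 ± 2.37% under i-BET151. At 24 h its share was 0.126 ± 0.120% with DMSO, 5.05 ± 1.37% under i-BET858 and 5.61 ± 0.252% under i-BET151. The order of SH3GL2 and SH3GL3 in the means of the treated groups depended on the length used, except under i-BET858 at 4 h. There SH3GL2 was at 1.63 and SH3GL3 at 0.948 CPM per kb of merged exons, and at 1.68 and 1.58 CPM per kb of the longest transcript. With the longest transcript that order held in replicate 2 only, where SH3GL2 was at 7.25 CPM, against 3.10 and 2.81 in replicates 1 and 3. At 24 h under i-BET858 SH3GL2 was at 2.03 and SH3GL3 at 1.70 CPM per kb of merged exons, but at 2.09 and 2.84 CPM per kb of the longest transcript. No order is read between those 2 genes over the treated groups as a whole, whereas with DMSO SH3GL2 was the lowest with either length.

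The genes whose log2 CPM across the 18 libraries was most like that of SH3GL2 included NGFR (Pearson r = 0.982), SLC30A3 (0.970), the histone pseudogene H2BC19P (0.967), BAIAP2 (0.966) and CYP20A1 (0.966), 5 of the 6 highest out of 16569 genes. The libraries share depth and the contrast of treated with untreated cells, so the values are a description. NGFR, a receptor for neurotrophins, rose from 1.67 CPM with DMSO to 49.7 under i-BET858 and 24.4 under i-BET151 at 4 h, and from 1.08 to 53.5 and 31.9 at 24 h. BAIAP2, an I-BAR protein that bends membranes outward, went from 171 to 422 and 344 CPM at 4 h. SLC30A3, the zinc transporter of synaptic vesicles, went from 0.392 to 7.22 and 4.62 CPM. Of these 5, CYP20A1 moved least, with log2 changes of 0.54 to 0.96 over the 4 comparisons with DMSO, since r takes no account of size. With a prior count of 0.5 in place of 2, 3 of the 6 genes stayed among the 6. For SH3GL1 the most similar genes were ARHGDIA (r = 0.967), ZMIZ2 (0.958) and SCAMP4 (0.955). For SH3GL3 they were PARPBP (0.921), SNX17 (0.899) and SERAC1 (0.895).

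**Figure D3:**
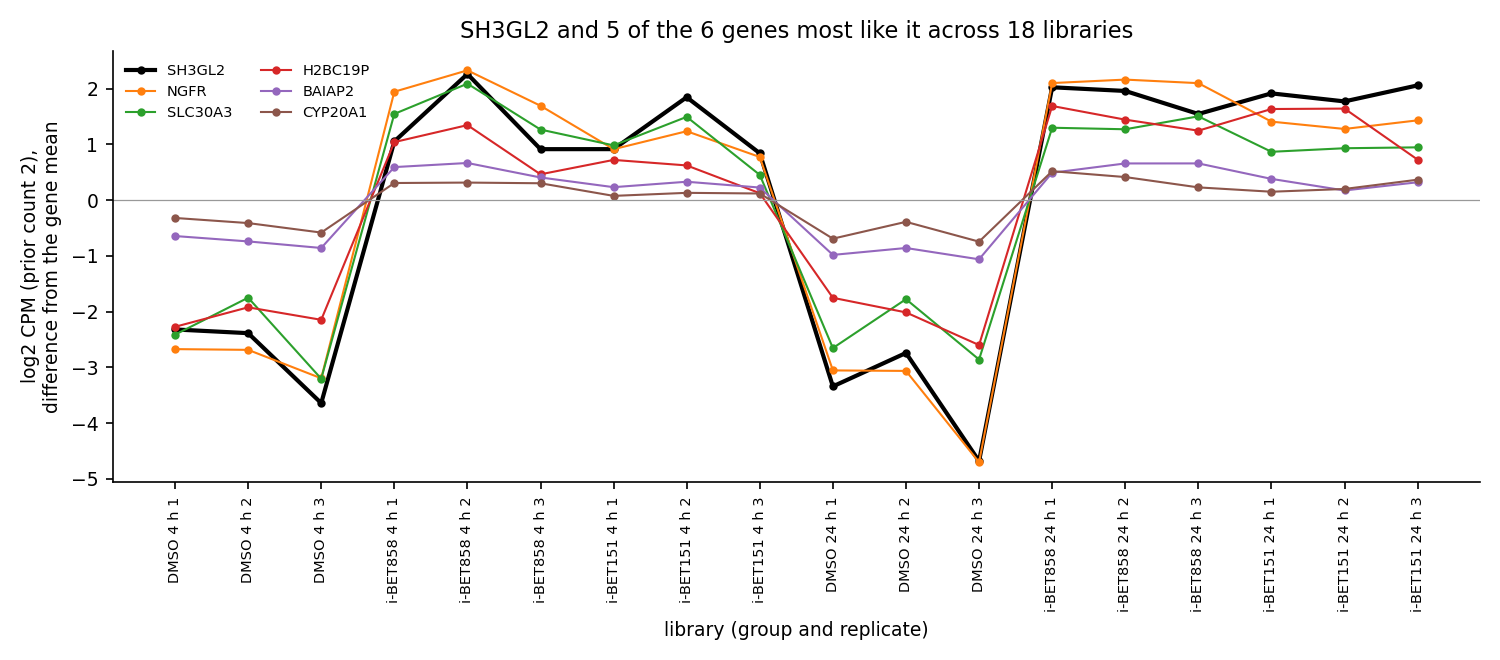
Log2 CPM (prior count of 2) less the mean of each gene (y axis) in the 18 libraries (x axis) for SH3GL2, in black, and 5 of the 6 genes with the highest Pearson r to it. The 6 DMSO libraries lay below the mean for all 6 genes shown, and the sizes of the steps differ between genes.

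Of the 5 neighbours of SH3GL2 on chromosome 9 that could be tested, none passed the threshold upward at 4 h, where 30.8% of all genes under i-BET858 and 16.2% under i-BET151 were called in either direction. Upstream, CNTLN (75.143 kb away) had log2 changes at 4 h of -0.52 with both drugs (edgeR adjusted p = 0.0776 and 0.115). BNC2, a zinc finger gene 708.223 kb away, fell at both times, by 1.04 and 0.95 at 4 h (edgeR adjusted p = 0.00308 and 0.0104) and by 1.23 and 0.93 at 24 h (adjusted p = 0.000465 and 0.00360) on the log2 scale. CCDC171, 1517.403 kb away, did not pass the threshold in any of the 4 comparisons with DMSO. Downstream, ADAMTSL1 (109.439 kb) had 0 to 19 counts and log2 changes of 0.23 to 0.91 with SEs above 1.0, and SAXO1 (1061.782 kb), with 0 to 14 counts, did not pass the filter. SAXO1 had 12 counts in all with DMSO at 4 h, 14 under i-BET858 and 27 under i-BET151, and the i-BET151 libraries did not overlap with DMSO in CPM. At 24 h it had 21 counts with DMSO, 6 under i-BET858 and 1 under i-BET151, where the i-BET151 libraries again did not overlap with DMSO but were the lower. RRAGA, which encodes the Rag GTPase A of nutrient sensing and lies 1252.303 kb away, was at log2 0.00 and 0.12 at 4 h and rose by 0.70 and 0.48 at 24 h (edgeR adjusted p = 0.000310 and 0.00439). CNTLN fell under i-BET151 at 24 h by 1.01 (edgeR adjusted p = 0.0301), a call lost when replicate 1 or 2 of the DMSO group or replicate 1 or 3 of the i-BET151 group was left out, and had a log2 change of -0.84 under i-BET858 (adjusted p = 0.0536).

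**Figure D4:**
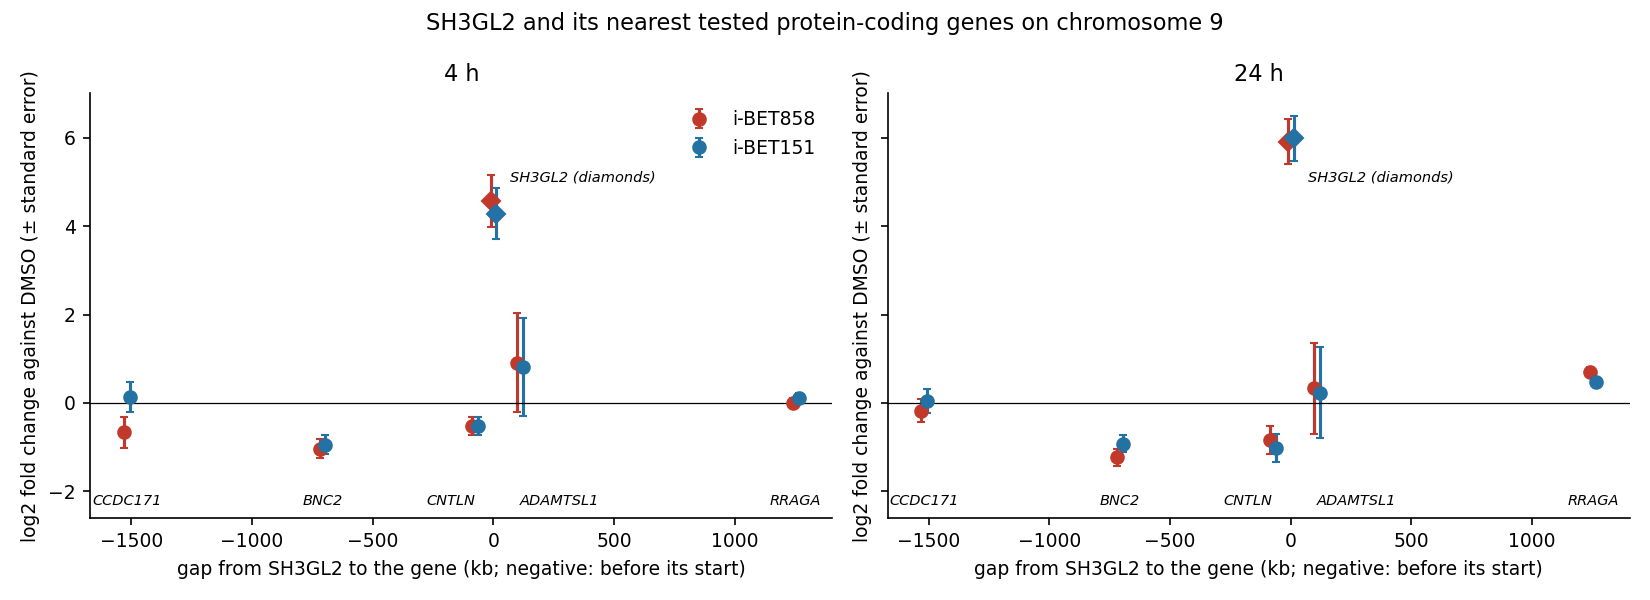
Log2 fold change against DMSO (y axis, ± standard error) at 4 and 24 h of SH3GL2 (diamonds) and the 5 nearest protein-coding genes that could be tested (circles), by their gap from SH3GL2 in kb (x axis). SH3GL2 stood at 4.28 or more in each comparison and its neighbours between -1.23 and 0.91.

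The other genes of the endocytic pathway were followed in a list of 100, of which 98 could be tested. They were called here with an adjusted p under 0.05 and a change of at least 2-fold. At 4 h under i-BET858, 5 of the 98 rose and 5 fell, where 7.08% of all genes rose and 7% fell, and the median log2 change of the list was -0.03, against 0.02 over all genes. Under i-BET151 at 4 h, 3 rose and 1 fell, against 4.12% and 2.97% of all genes. At 24 h under i-BET858, 10 rose and 12 fell, with 7.65% and 11.2% over all genes and medians of 0.25 for the list and -0.01 for all genes. Under i-BET151 at 24 h, 10 rose and 5 fell, with 5.59% and 8.09% over all genes and medians of 0.22 and 0.00. By the adjusted p alone, 43 of the 98 rose and 18 fell under i-BET858 at 24 h, where 41.7% of all genes were called in either direction.

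Of the 23 genes listed as endophilin partners, 0 were called under i-BET858 at 4 h, where 7.08% of all genes rose and 7% fell. By the adjusted p alone 2 rose and 4 fell, where 30.8% of all genes were called in either direction. At 24 h 2 rose and 1 fell at least 2-fold, where 7.65% of all genes rose and 11.2% fell. By the adjusted p alone 11 rose and 2 fell at 24 h, where 41.7% of all genes were called. SYNJ1, the synaptojanin with which endophilin A1 acts at synapses, was at 14.0, 12.4 and 11.7 CPM in the DMSO libraries at 24 h. Under i-BET858 it was at 35.6, 27.9 and 36.6 CPM, and under i-BET151 at 28.9, 31.9 and 29.2, without overlap with DMSO. The rise was 1.35 under i-BET858 (log2, edgeR adjusted p = 2.21e-05) and 1.22 under i-BET151 (adjusted p = 7.61e-05), after 0.57 and 0.54 at 4 h (adjusted p = 0.0920 and 0.156). SYNJ2, its paralog, had log2 changes of 0.08 and 0.25 at 24 h (edgeR adjusted p = 0.791 and 0.392).

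AMPH, which encodes amphiphysin, a BAR protein that also brings dynamin to the vesicle neck, stood at the edge of detection with DMSO. It had 7, 2 and 0 counts with DMSO at 24 h, 65, 66 and 51 under i-BET858 and 94, 66 and 49 under i-BET151. All treated libraries at 24 h stood above those with DMSO, and the log2 change was 3.98 (edgeR adjusted p = 0.00116) and 4.27 (adjusted p = 0.00108). AMPH too passed the filter at 24 h only through its treated libraries, and both calls held with no filter. At 4 h the counts overlapped, with 12, 11 and 14 for DMSO, 8, 24 and 17 for i-BET858 and 9, 29 and 25 for i-BET151. BIN1, the widely expressed amphiphysin, had a log2 change of -0.21 under i-BET858 at 24 h (edgeR adjusted p = 0.238).

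Among the dynamins, DNM2, the form found in most cells, passed the adjusted p in all 4 comparisons with DMSO. Each rise was under 2-fold, so DNM2 was not called by the rule for list genes. Its level went from 98.0 ± 5.83 CPM to 129 ± 9.19 under i-BET858 and 126 ± 3.44 under i-BET151 at 4 h (log2 0.40 and 0.37, n = 3, edgeR adjusted p = 0.0149 and 0.0378). At 24 h it went from 104 ± 5.70 CPM to 175 ± 9.64 and 152 ± 9.34 (log2 0.71 and 0.53, n = 3, edgeR adjusted p = 0.000160 and 0.00158). Both 4 h passes of the adjusted p were lost when total library size replaced TMM, and without replicate 1 of the DMSO group. The 4 h pass under i-BET151 was also lost without any other of the 6 libraries compared. DNM1, the neuronal form, had log2 changes of -0.40 and 0.03 at 24 h (edgeR adjusted p = 0.0866 and 0.899). DNM3 reached 0.63 under i-BET858 at 24 h (edgeR adjusted p = 0.0456), also under 2-fold. This pass of the adjusted p was lost in 9 of 18 alternative analyses. Of the endophilins B, which act on internal membranes, SH3GLB2 rose by less than 2-fold at 24 h (log2 0.59 and 0.53, edgeR adjusted p = 0.00514 and 0.0113). Its pass of the adjusted p under i-BET151 was lost without replicate 1 of the i-BET151 group. SH3GLB1 had log2 changes of 0.18 and 0.20 (edgeR adjusted p = 0.131 and 0.108).

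Coat and curvature genes moved in both directions. Of 32 genes of the clathrin and AP2 coat, 4 rose and 4 fell at least 2-fold under i-BET858 at 24 h, against 7.65% and 11.2% of all genes. By the adjusted p alone 17 rose and 4 fell, where 41.7% of all genes were called in either direction. The median log2 change of the coat genes was 0.37, against -0.01 over all genes. DNAJC6, which encodes auxilin, the cofactor that strips clathrin from vesicles, went from 15.8 ± 2.07 to 76.9 ± 15.6 CPM (log2 2.24, n = 3, edgeR adjusted p = 3.55e-06). EPN3, an epsin, fell from 75.6 ± 11.5 to 12.4 ± 1.10 CPM (log2 -2.65, n = 3, edgeR adjusted p = 1.26e-06), and FCHO1, which starts clathrin pits, fell from 20.5 ± 1.25 to 3.22 ± 0.325 CPM (log2 -2.71, n = 3, edgeR adjusted p = 1.90e-06). HIP1, which links clathrin to actin, fell by 1.56, and REPS2 rose by 1.59 (edgeR adjusted p = 1.39e-05 and 4.25e-05). STON1 fell by 1.16 (edgeR adjusted p = 0.00526).

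Of 25 tested genes of other BAR and curvature proteins, 3 rose and 4 fell under i-BET858 at 24 h, against the same 7.65% and 11.2% of all genes. BAIAP2 rose by 1.53, CAVIN1, a coat protein of caveolae, by 2.02 and EHD1, an ATPase of endosomal recycling, by 1.43 (edgeR adjusted p = 1.64e-06, 1.08e-05 and 2.84e-05). Of the 3 syndapins, F-BAR proteins that also bind dynamin, PACSIN1 and PACSIN3 fell. PACSIN1, the neuronal form, had 200, 153 and 144 counts with DMSO at 24 h, 27, 19 and 25 under i-BET858 and 47, 27 and 61 under i-BET151 (log2 -3.13 and -2.09, edgeR adjusted p = 5.31e-05 and 0.000770). PACSIN3 fell by 2.45 and 2.08 (edgeR adjusted p = 5.94e-07 and 2.65e-06). PACSIN2, the widely expressed form, named here after its values were seen, rose by less than 2-fold (log2 0.49 and 0.33, edgeR adjusted p = 0.00511 and 0.0404). EHD2 and SNX33 fell under i-BET858 by 1.60 and 1.43 (edgeR adjusted p = 0.00707 and 0.000335). Of 18 tested genes of fast endophilin-mediated uptake, 1 rose and 3 fell, with the same shares over all genes. INPPL1, which encodes the phosphatase SHIP2, fell by 1.53, the kinase gene PAK1 by 1.26 and TRIP10, which encodes the F-BAR protein CIP4, by 1.25 (edgeR adjusted p = 6.32e-06, 3.20e-05 and 4.92e-06). RAPH1, which encodes lamellipodin, rose by 2.30 (edgeR adjusted p = 0.0296), a call lost without any 1 of the 3 DMSO libraries or replicate 3 of the i-BET858 group.

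Because endophilin A1 is known from synapses, 66 synaptic and neuronal genes were followed as well, of which 53 could be tested at each time. Under i-BET858, 12 rose and 2 fell at 4 h, where 7.08% of all genes rose and 7% fell, and 15 rose and 7 fell at 24 h, where 7.65% rose and 11.2% fell. Under i-BET151, 11 rose and 1 fell at 4 h, against 4.12% and 2.97% of all genes, and 14 rose and 5 fell at 24 h, against 5.59% and 8.09%. The count under i-BET151 at 4 h, 12 in either direction, was 7 without replicate 2 of that group.

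Among the vesicle genes, PCLO, a scaffold of the active zone, had log2 changes of 1.47 at 4 h and 3.36 at 24 h under i-BET858 (edgeR adjusted p = 0.00494 and 0.000112), and SYP, the vesicle protein synaptophysin, of 2.03 and 3.03 (adjusted p = 0.00645 and 0.000773). At 24 h SYP had 18, 10 and 4 counts with DMSO and needed its treated libraries to pass the filter, and the call held with no filter. UNC13B, a priming factor, rose by 1.87 at 24 h (edgeR adjusted p = 6.53e-07). RIMS1, another active zone scaffold, fell by 2.42 at 24 h, SYNGR1 by 1.74 and SYNGR3 by 1.09 (edgeR adjusted p = 3.96e-06, 9.47e-05 and 0.000513). Among the neuronal structure genes, NEFH, a neurofilament subunit, rose from 1.84 to 39.5 CPM under i-BET858 and to 17.1 CPM under i-BET151 at 4 h (log2 4.43 and 3.22, edgeR adjusted p = 1.68e-06 and 3.28e-05). NEFH was the 1 gene of both lists that edgeR called between the drugs (log2 1.21 at 4 h, edgeR adjusted p = 0.0437). INA, another neurofilament gene, rose by 2.04 at 4 h and 1.87 at 24 h (edgeR adjusted p = 9.40e-06 and 5.77e-07). MAP2, which binds dendritic microtubules, and ENO2, the neuronal enolase, rose at 24 h by 1.70 and 1.00 (edgeR adjusted p = 0.000656 and 0.00736). The postsynaptic scaffold genes DLG4 and SHANK2 fell by 2.05 and 2.07 at 24 h (edgeR adjusted p = 1.16e-05 and 3.51e-05). Between the drugs, 0 of 98 endocytosis genes passed in edgeR at either time, with 12 at 4 h and 22 at 24 h under an unadjusted p of 0.05, against 11.9% and 11.4% of all genes, and 4 and 5 by the adjusted p of DESeq2, which called 5.21% and 2.97% of all genes. Of the 53 synaptic genes, 4 at 4 h and 8 at 24 h had an unadjusted p under 0.05 in edgeR, and DESeq2 called 1 and 2, against the same shares of all genes.

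**Figure D5:**
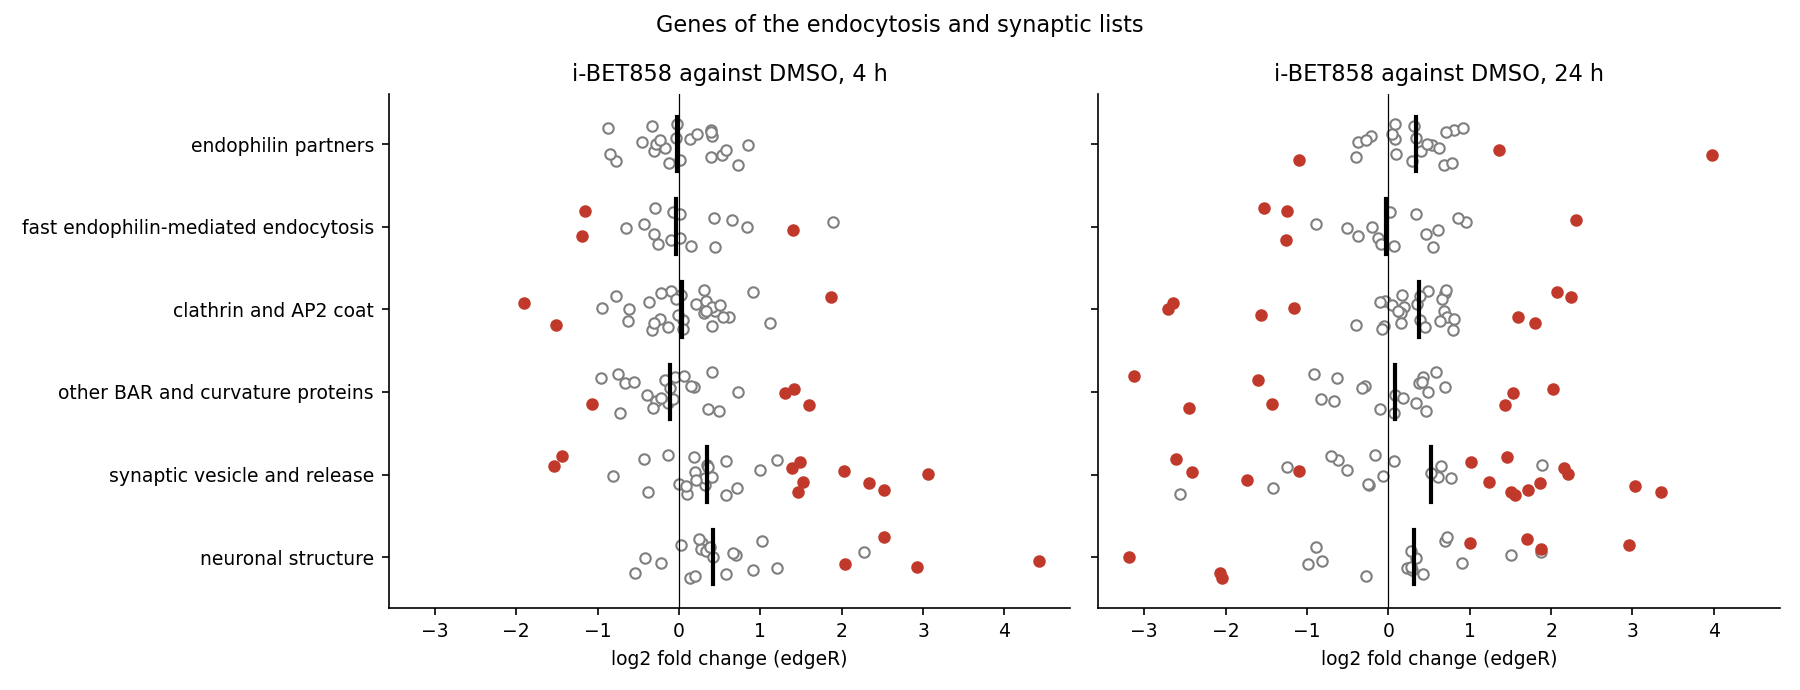
Log2 fold change under i-BET858 against DMSO (x axis) of each tested gene of the 6 groups of the lists (y axis) at 4 h and 24 h. Filled points passed an adjusted p under 0.05 and 2-fold, open points did not, and vertical bars are medians; the medians of the endocytic groups lay between -0.11 and 0.37, those of the synaptic groups between 0.32 and 0.53.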

How the data were processed

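Poly-A RNA of 18 OVCAR-3 libraries was sequenced as paired-end reads. The authors used STAR for alignment to GRCh38 and deposited raw counts per gene, without normalization; the annotation and strand setting are not given in the sources used here. Of 58825 genes, 58472 (99.4%) matched GENCODE 44, and 23896 had no count. Replicates of a group differed by 4.19 to 66.1 times counting error (chi-square per degree of freedom, 18 pairs).

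Each time point was fitted in edgeR 4.0.16 (R 4.3.3) with its 3 groups, by the quasi-likelihood test after TMM normalization and the default filter on low counts, adjusted by Benjamini-Hochberg over all genes tested. Changes of effect came from a fit of all 18 libraries. Members were called at an adjusted p under 0.05, list genes also at 2-fold. Intervals are 95%. Libraries of the same replicate number had correlations of deviations from the group means of 0.140 to 0.363 at 4 h and 0.160 to 0.353 at 24 h. Between libraries of different numbers they were -0.339 to 0.233 and -0.330 to 0.328, with medians of -0.224 and -0.247, so the ranges overlap. Those of the same number all being above 0.1, the numbers were taken to pair the libraries. The main fits left this pairing out, and a replicate block was an alternative. The other alternatives were DESeq2 1.42.0, its size factors, total library size, 2 filters, other fits, each library left out, no replicate 3, 2 call rules, 1 other gene length and 1 other prior count. The tests were tried on simulated data. Coding sequences were aligned with Biopython 1.88.

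The members and lists were chosen with earlier results of these data known. List genes are named by rule: per group, up to 4 called rises and 4 called falls, largest with i-BET858 at 24 h, if expressed at an average log2 CPM of 1 or more and moving 1 way in all 9 pairs, plus dynamins, synaptojanins, amphiphysins and endophilins B. The 6 genes most like SH3GL2, 3 each for the others, and 3 protein-coding neighbours on each side are named too; 2 genes that the rules would name are not reported here.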

Additional observations from a re-analysis of the deposited data

Results flagged for a closer look

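Several genes of the lists and 1 neighbour of SH3GL2 had an effect of i-BET858 at 24 h that differed from that at 4 h by the test of the difference itself (edgeR, 18 libraries, adjusted p under 0.05). They were 22 of the 43 named genes and neighbours that could be tested. Most of these genes were named for the size of their change at 24 h, which favours a difference between the times. Their number therefore cannot be read against the 27.2% of 18154 genes called over all genes tested. The values are changes of the log2 effect from 4 to 24 h. The effect became more positive by 3.49 for AMPH, which had 9 counts in all with DMSO at 24 h. It became more positive by 0.83 for SYNJ1, 0.44 for SH3GLB1, 1.09 for REPS2 and 0.65 for CAVIN1. In the synaptic list it became more positive by 1.93 for PCLO and 1.56 for UNC13B. Next to SH3GL2 it became more positive by 0.74 for RRAGA. For the coat genes the change was -0.70 for EPN3, -2.05 for FCHO1 and -1.50 for HIP1. Among curvature and uptake genes it was -0.57 for BIN1, -1.19 for INPPL1, -1.12 for PAK1, -3.15 for PACSIN1 and -2.09 for PACSIN3. In the synaptic list it was -2.15 for DLG4, -1.43 for NEFH, -2.40 for SHANK2, -2.57 for RIMS1, -2.04 for SYNGR1 and -0.92 for SYNGR3.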

How the results depend on the processing

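The rise of SH3GL2 at 4 h kept its direction and its call in all 17 alternatives with either drug, with log2 changes of 3.99 to 4.82 under i-BET858 and 3.88 to 4.54 under i-BET151. The rise at 24 h was 5.37 to 6.73 and 5.33 to 6.81 over all alternatives. Its depth with DMSO, 0 to 9 counts a library, limits every fold change of SH3GL2. The replicate block changed 3 calls, all of SH3GL1 (log2 0.38 under i-BET151 at 24 h, and changes of effect of 0.56 and 0.42), and no other call of the 3 genes.

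Differences near 0 changed sign. SH3GL1 under i-BET858 at 4 h was 0.000166 with DESeq2, 0.00324 with its size factors, 0.00867 with at least 10 counts in every library and 0.00446 with only the 2 groups compared. SH3GL3 under i-BET858 at 4 h was -0.098 with total library size, which moved the median of all genes from 0.02 to -0.14. SH3GL1 between the drugs at 4 h was -0.097 with total library size, -0.00574 without a filter, -0.00109 with all 18 libraries, -0.00617 with only the 2 groups and -0.00341 with the block. Without a filter SH3GL1 passed the threshold under i-BET151 at 24 h (0.39) and in the change of the i-BET858 effect (0.58). Called endocytosis genes (i-BET858 and i-BET151 at 4 h, then at 24 h) numbered 34, 19, 61 and 45 by the adjusted p alone (30.8%, 16.2%, 41.7% and 33.8% of all genes) and 23, 12, 45 and 30 with a 1.5-fold limit (24.5%, 13.2%, 31.3% and 24.4% of all genes). With the longest transcript as length, the share of SH3GL2 at 24 h was 3.58% under i-BET858 and 3.98% under i-BET151. The cause was not tested.

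With each library left out in turn, log2 values ranged as follows. SH3GL1 at 4 h was -0.24 to 0.14 under i-BET858, -0.19 to 0.15 under i-BET151 and -0.22 to 0.18 between the drugs. At 24 h it was 0.41 to 0.63 under i-BET858 and 0.25 to 0.51 under i-BET151, with changes of effect of 0.40 to 0.75 and 0.26 to 0.57, and -0.036 to 0.22 between the DMSO groups. SH3GL3 was -0.015 to 0.14 under i-BET858 at 4 h, 0.13 to 0.68 and 0.17 to 0.72 with the drugs at 24 h, and -0.082 to 0.025 between them. SH3GL2 between the drugs was -0.29 to 0.69 at 4 h and -0.17 to 0.058 at 24 h. Called synaptic genes under i-BET151 at 4 h were 7 to 12. Without replicate 3 in every group, SH3GL3 was 0.62 and 0.74 at 24 h, with a change of the i-BET151 effect of 0.88. SH3GL1 was then 0.34 under i-BET151 at 24 h and 0.59 in the change of the i-BET858 effect, both past the threshold. Between the drugs SH3GL1 was -0.048 at 4 h and SH3GL2 was 0.16 at 24 h. Of 98 differences of the other named genes that passed the adjusted p, with or without 2-fold, 87 kept that pass in all alternatives, 11 lost it in some and 0 reversed.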
